A study of Homo sapiens with 36 samples.

Results

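The genes of the tight junction were followed in A549 cells exposed to cigarette smoke extract (CSE). Of 9 genes chosen by name, 7 could be read: the claudins CLDN1, CLDN2, CLDN3, CLDN4, CLDN7 and CLDN12, and TJP1, which encodes the scaffold protein zonula occludens 1. They are 7 of the 18417 genes that the array annotation names. Each was read from a transcript cluster, the set of probes spread over the exons of a gene, that carries its symbol and no other, and each had 1 such cluster. OCLN, the gene of occludin, shares its transcript cluster with its pseudogene OCLNP1 and was not read. F11R, the gene of junctional adhesion molecule A, was not analysed here. The members are named genes and were not selected by a threshold on their values, although earlier results of these data were known when they were named.

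A549 is an established human line derived from a lung adenocarcinoma, and used as a model of the alveolar type II cell. CSE is culture medium through which cigarette smoke was bubbled, and the percentages are dilutions of it. The cells were grown in low-serum medium with CSE at 1%, 5% or 10% or with none, renewed every day, and were subcultured every week. RNA was taken at 1, 3 and 5 weeks, which gives 12 groups of 3 arrays (36 in all, from experiments described as independent). All groups are of this single line.

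Tight junctions close the space between neighbouring epithelial cells. Claudins are membrane proteins that join across this space into strands: some, such as claudin-1, claudin-3 and claudin-4, are known as sealing claudins, and claudin-2 forms a pore for small cations and water. Most claudins end in a motif that binds the PDZ domains of TJP1, which ties the strands to the actin cytoskeleton, and claudin-12 lacks that motif. In the lung, claudin-3, claudin-4 and claudin-18 are the claudins best known from alveolar epithelium.

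Promoter windows are shown for the 4 claudins whose levels followed different courses over exposure and time, so that they can be set beside each other. The RefSeq table (GRCh38.p14) held 14 windows for 8 of the 9 genes, and 35116 windows for all genes. Each window holds the 250 bases before an annotated start site, written 5′ to 3′ on the strand of the gene. They lie at chr3:190322447-190322696 (minus strand) for CLDN1, chr7:90403211-90403460 (plus) for CLDN12, chrX:106899914-106900163 and chrX:106918110-106918359 (both plus) for the start sites of CLDN2, and chr7:73830746-73830995 (plus) for CLDN4. Capitals mark matches, on either strand, to the xenobiotic response core GCGTG, the AP-1 motif TGANTCA, the SP1 motif GGGCGG and the antioxidant response motif TGACNNNGC.
CLDN1: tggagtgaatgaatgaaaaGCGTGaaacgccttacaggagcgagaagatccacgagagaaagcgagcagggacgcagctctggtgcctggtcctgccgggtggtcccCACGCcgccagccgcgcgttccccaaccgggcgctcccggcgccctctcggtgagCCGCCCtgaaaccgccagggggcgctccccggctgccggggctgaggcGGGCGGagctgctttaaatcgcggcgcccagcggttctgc
CLDN12: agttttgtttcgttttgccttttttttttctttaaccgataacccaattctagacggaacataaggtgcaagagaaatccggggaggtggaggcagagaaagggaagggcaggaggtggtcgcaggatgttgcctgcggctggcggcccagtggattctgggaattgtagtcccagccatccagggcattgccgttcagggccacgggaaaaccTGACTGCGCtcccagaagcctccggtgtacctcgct
CLDN2, upstream start site: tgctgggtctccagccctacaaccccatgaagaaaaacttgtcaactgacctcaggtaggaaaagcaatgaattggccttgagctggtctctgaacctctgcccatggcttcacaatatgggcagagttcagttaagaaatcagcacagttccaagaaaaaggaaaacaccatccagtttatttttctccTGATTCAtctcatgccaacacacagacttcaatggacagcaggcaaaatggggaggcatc
CLDN2, downstream start site: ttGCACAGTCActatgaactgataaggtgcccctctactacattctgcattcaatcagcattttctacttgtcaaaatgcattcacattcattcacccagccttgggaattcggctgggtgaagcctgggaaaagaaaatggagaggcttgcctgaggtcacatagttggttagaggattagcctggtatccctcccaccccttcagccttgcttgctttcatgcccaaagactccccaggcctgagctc
CLDN4: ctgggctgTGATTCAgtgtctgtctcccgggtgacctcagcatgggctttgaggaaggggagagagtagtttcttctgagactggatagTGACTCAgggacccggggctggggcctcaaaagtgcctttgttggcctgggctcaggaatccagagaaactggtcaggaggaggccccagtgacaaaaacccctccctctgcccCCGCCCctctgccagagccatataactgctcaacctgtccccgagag
The CLDN1 window held the xenobiotic response core, which the aryl hydrocarbon receptor binds, at 231 and 143 bases before the start site, and the SP1 motif at 88 and 40 bases. The AP-1 motif was at 60 bases in the first CLDN2 window and at 242 and 161 bases in that of CLDN4. The antioxidant response motif, bound by NRF2, was at 36 bases in CLDN12 and at 248 bases in the second CLDN2 window. Matches of different motifs did not overlap in these windows. The xenobiotic core was found in 32.2% of all promoter windows, AP-1 in 6.57%, SP1 in 42.6% and the antioxidant response motif in 10.9%. Of the 14 windows of the members, the xenobiotic core was in 5 (CLDN1, CLDN7 and TJP1) and the antioxidant response motif in 4 (CLDN2, CLDN3, CLDN7 and CLDN12). AP-1 was in 2 (CLDN2 and CLDN4) and SP1 in 8 (CLDN1, CLDN3, CLDN4, CLDN7, OCLN and TJP1). The E-box CACCTG, which SNAI1 and ZEB1 bind, was in 17.5% of all windows and, among the members, in windows of CLDN7, OCLN and TJP1. The motifs AACCNGTT of GRHL proteins (1.49% of all windows) and GGAATG of TEAD proteins (11.9%) had no match in the 14 windows of the members. A match describes these letters and is not a measured binding site.

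The control arrays at 5 weeks need a remark before the results. Their titles give 5 weeks while their descriptions give 3 weeks, as do the source names of replicates 1 and 2, and they were grouped by title. The standard deviation of their log2 values was 2.15 to 2.21, against 2.25 to 2.31 on the other 33 arrays. In the comparisons with them, the median log2 difference of all transcript clusters was -0.14, -0.17 and -0.17 for CSE 1%, 5% and 10%, and -0.23, -0.25 and -0.23 among the dim clusters, those outside the 60% brightest. Each 5-week comparison is therefore also given against the 6 control arrays of weeks 1 and 3, for which the medians of all clusters were between -0.02 and -0.00. That choice leaves time and exposure together, because those controls were grown for less time than the exposed cells. Another scaling also shifted the background. Cyclic loess moved the median for CSE 5% at 5 weeks from -0.17 to -0.03 and the calls from 7662 higher and 13423 lower to 8539 and 9221. Centring on housekeeping genes moved the median for CSE 10% at 3 weeks from 0.01 to 0.20 and the calls from 4665 higher and 4161 lower to 10542 and 2252.

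CLDN1 and TJP1 were higher than in the control of the same week in 8 of the 9 comparisons each, and the other members moved less often. A cluster was called changed where the limma p, adjusted by Benjamini-Hochberg across the 33297 clusters, was under 0.05. At 1 week CSE 1% changed 1 of 7 members, CLDN12, which was higher, against 3.41% of all clusters called higher and 1.9% called lower. CSE 5% raised 3 of 7 (CLDN1, CLDN4 and TJP1), against a background of 5.99% higher and 4.84% lower, and CSE 10% raised 3 of 7 (CLDN1, CLDN12 and TJP1), against 8.27% and 8.44%. At 3 weeks 2 of 7 members (CLDN1 and TJP1) were higher with CSE 1%, where 5.67% of all clusters were higher and 5.81% lower. With CSE 5% it was 3 of 7 (CLDN1, CLDN2 and TJP1; background 9.7% and 9.93%), and with CSE 10% 3 of 7 (CLDN1, CLDN12 and TJP1; background 14% and 12.5%). No member was lower at 1 or 3 weeks.

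At 5 weeks more members passed the test, and so did more of the background. With CSE 1%, CLDN1, CLDN12 and TJP1 were higher and CLDN7 lower, while 20.3% of all clusters were called higher and 33.5% lower. With CSE 5%, CLDN1, CLDN2, CLDN12 and TJP1 were higher and CLDN7 lower (background 23% and 40.3%). With CSE 10%, the same 4 genes were higher and CLDN3 and CLDN4 lower (background 21.9% and 39.6%). Against the controls of weeks 1 and 3 the members called higher were 2, 3 and 3 of 7 for CSE 1%, 5% and 10%, against 7.86%, 13.1% and 15% of all clusters. The members called lower were then 0, 0 and 1, against 7.43%, 13% and 16%. The median log2 difference of the 7 members was 0.75 for CSE 5% at 5 weeks with the 5-week controls and 0.20 with the controls of weeks 1 and 3.

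**Figure D1:**
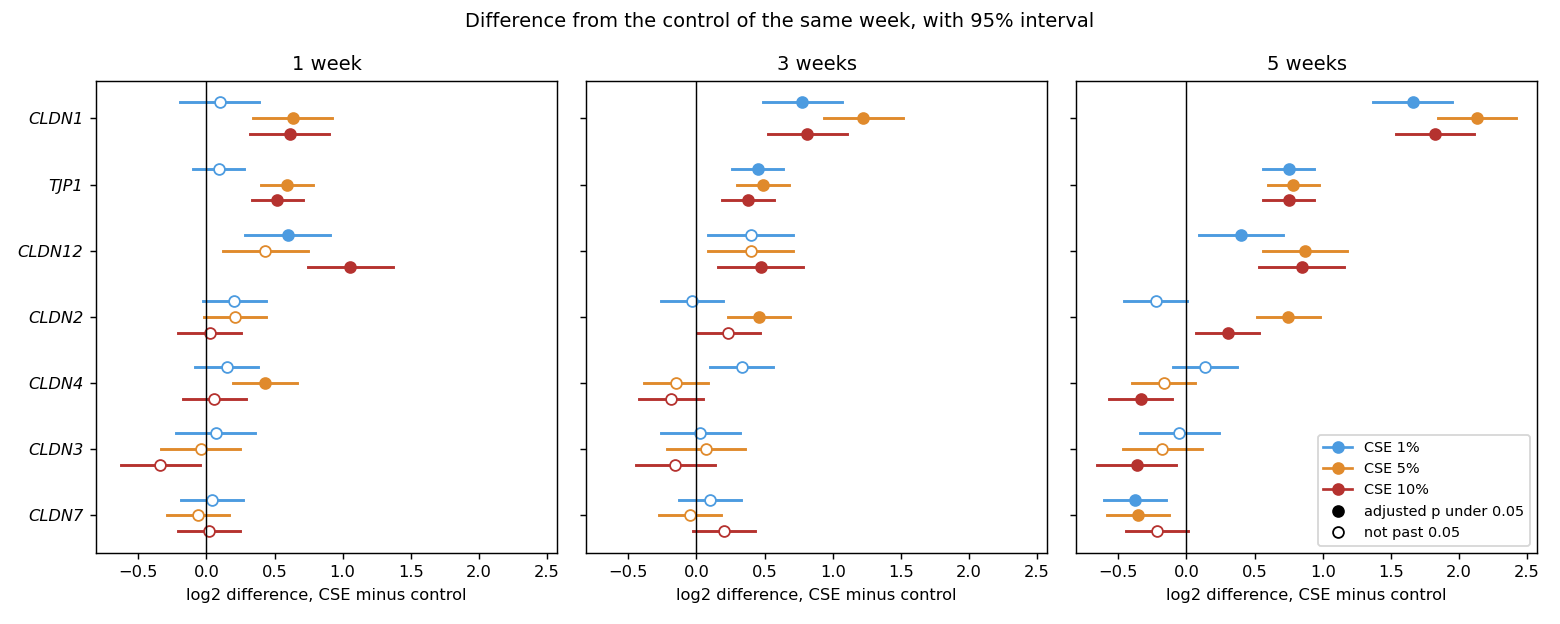
Log2 difference between exposed and control cells of the same week for each of the 7 members (rows), by week (panels) and CSE concentration (colours). Points are limma estimates from 3 arrays a group, lines their 95% intervals, and filled points passed an adjusted p of 0.05. CLDN1 reaches 2.13 at 5 weeks with CSE 5%, and the points of CLDN3 and CLDN7 stay within 0.38 of 0.

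CLDN1 had the widest course of the 7 genes, with 12 group means that spanned 2.13 log2 units. That rank rests on the 5-week controls, its lowest group. Without them its means ran from 10.59 to 11.94, and those of CLDN12 (9.74 to 11.24) and CLDN2 (6.75 to 8.16) spanned more. At 1 week the log2 levels of CLDN1 were 11.06, 11.12 and 10.69 in control cells, 11.08, 10.99 and 11.09 with CSE 1%, 11.72, 11.46 and 11.58 with CSE 5%, and 11.50, 11.68 and 11.52 with CSE 10%. At 3 weeks the control arrays read 10.61, 10.44 and 10.73, those of CSE 1% 11.39, 11.34 and 11.39, those of CSE 5% 11.84, 11.78 and 11.83, and those of CSE 10% 11.48, 11.42 and 11.32. At 5 weeks the values were 9.28, 10.06 and 10.08 in control cells, 11.30, 11.54 and 11.56 with CSE 1%, 12.06, 11.75 and 12 with CSE 5%, and 11.60, 11.55 and 11.75 with CSE 10%. Apart from CSE 1% at 1 week, every exposed array lay above every control array of its week. Control replicate 1 at 5 weeks lay well below the other 2.

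The log2 difference of CLDN1 from its control at 1 week was 0.10 with CSE 1% (SE 0.14, adjusted p = 0.77), 0.63 with CSE 5% (adjusted p = 0.0025) and 0.61 with CSE 10% (adjusted p = 0.0022). At 3 weeks it was 0.78, 1.22 and 0.81 (SE 0.14 each), with adjusted p from 1.5e-07 to 0.00027. These are rises of 1.71-fold, 2.34-fold and 1.76-fold. At 5 weeks it was 1.66, 2.13 and 1.82, or 3.16-fold, 4.38-fold and 3.54-fold, with adjusted p of 6.8e-10 or less. Against the controls of weeks 1 and 3 the 5-week differences were 0.69, 1.16 and 0.86 (SE 0.12), with adjusted p from 1.6e-08 to 0.00013. The difference with CSE 5% at 5 weeks was 1.87 without control replicate 1 of that week. In these array data, more cells with the transcript and more of it in each cell cannot be told apart.

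TJP1 rose by a smaller amount in the same comparisons. Its control arrays read 11.26, 11.15 and 10.93 after 1 week, 11.48, 11.32 and 11.30 after 3 weeks, and 10.58, 11.02 and 10.98 after 5 weeks. The CSE 5% arrays gave 11.75, 11.66 and 11.71 after 1 week, 11.88, 11.73 and 11.95 after 3 weeks, and 11.66, 11.59 and 11.69 after 5 weeks. The arrays of CSE 10% lay between 11.58 and 11.77 over the 3 weeks. With CSE 1% TJP1 read 11.32, 11.10 and 11.19 after 1 week, which overlapped the controls, then 11.80, 11.82 and 11.81 after 3 weeks, and 11.52, 11.72 and 11.59 after 5 weeks. From 3 weeks on, no exposed array overlapped the controls of its week.

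The log2 difference of TJP1 from control at 1 week was 0.09 with CSE 1% (SE 0.09, adjusted p = 0.66), 0.59 with CSE 5% (adjusted p = 3.2e-05) and 0.52 with CSE 10% (adjusted p = 0.00011). At 3 weeks it was 0.45, 0.49 and 0.38, which is 1.36-fold, 1.40-fold and 1.30-fold, with adjusted p from 0.00023 to 0.0024. At 5 weeks it was 0.75, 0.79 and 0.75, or 1.68-fold, 1.72-fold and 1.68-fold, with adjusted p of 4.6e-07 or less. Against the controls of weeks 1 and 3 it was 0.37, 0.41 and 0.37 (SE 0.08; adjusted p from 0.00028 to 0.0013). The called rises of CLDN1 and TJP1 against the control of the same week kept their direction and their call under every alternative run, with each array left out in turn included.

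**Figure D2:**
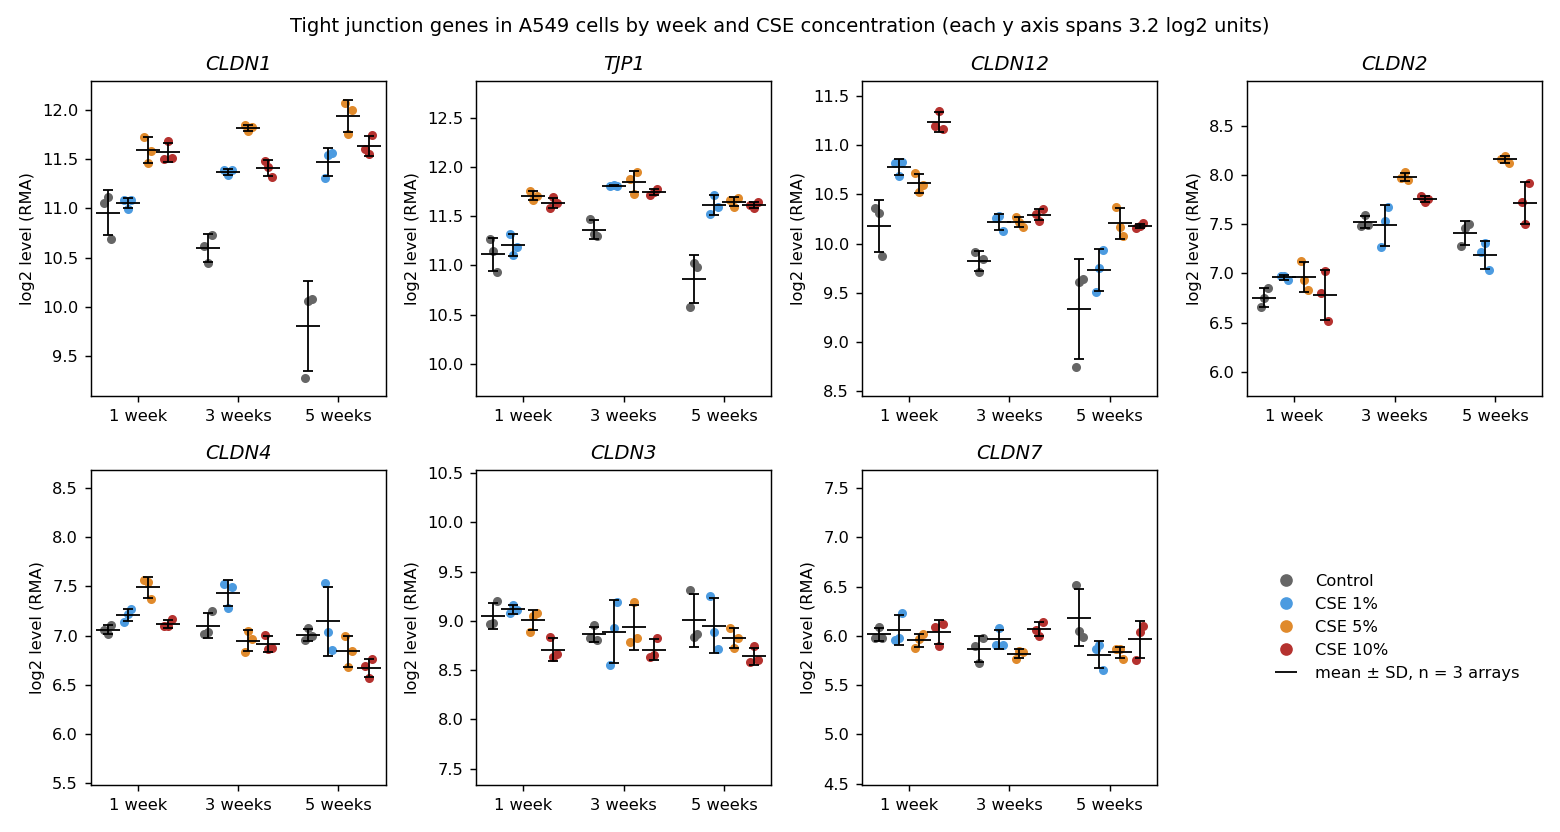
Log2 level (RMA) of the 7 genes on each of the 36 arrays, by week (x axis) and exposure (colours), with the mean ± SD of 3 arrays in black. Each y axis spans 3.2 log2 units at the level of its gene. The control values of CLDN1, TJP1 and CLDN12 fall by 5 weeks, where control replicate 1 reads 9.28 for CLDN1 and 8.75 for CLDN12, and CLDN2 climbs with time and CSE 5%.

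CLDN12, the claudin without the TJP1-binding end, was highest at the first time point. At 1 week the control arrays read 10.36, 10.31 and 9.88, those of CSE 1% 10.81, 10.69 and 10.83, those of CSE 5% 10.72, 10.53 and 10.59, and those of CSE 10% 11.20, 11.35 and 11.16. At 3 weeks the control values were 9.92, 9.71 and 9.84, and the 9 exposed arrays lay between 10.13 and 10.35. At 5 weeks the control values were 8.75, 9.61 and 9.64, those with CSE 1% 9.51, 9.76 and 9.94, those with CSE 5% 10.38, 10.17 and 10.07, and those with CSE 10% 10.16, 10.17 and 10.21. Exposed and control arrays overlapped in 1 of the 9 comparisons, CSE 1% at 5 weeks.

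At 1 week CLDN12 exceeded control by 1.06 with CSE 10% (2.08-fold, SE 0.15, adjusted p = 5.3e-06). CSE 1% gave 0.60 (adjusted p = 0.016), while the 0.43 with CSE 5% did not pass (adjusted p = 0.067). At 3 weeks 0.47 with CSE 10% passed (adjusted p = 0.020), and 0.40 with CSE 1% and 0.40 with CSE 5% did not (adjusted p = 0.094 and 0.065). The latter passed in the fit to the compared arrays alone (adjusted p = 0.017), with cyclic loess (0.038), with housekeeping centring (0.0055) and among the 60% brightest clusters (0.043), and the former with cyclic loess (0.0495) and housekeeping centring (0.013). At 5 weeks the differences were 0.40, 0.87 and 0.85 (adjusted p = 0.028, 2.3e-05 and 3.3e-05). Against the controls of weeks 1 and 3 they were -0.27, 0.20 and 0.18, with adjusted p of 0.19, 0.27 and 0.32, so no rise at 5 weeks was called with them. The call for CSE 1% at 5 weeks was also lost without control replicate 1 of that week (0.11, adjusted p = 0.47). It was lost as well without CSE 1% replicate 2 or 3 (0.39 and 0.30), in the fit to the compared arrays alone (adjusted p = 0.24) and with cyclic loess (0.096). At 1 week the call for CSE 1% was lost without control replicate 3 (0.44) or CSE 1% replicate 1 or 3 (0.58 and 0.57). The fit to the compared arrays alone also ended it (adjusted p = 0.12). At 3 weeks the call for CSE 10% was lost without control replicate 2 (0.42) or CSE 10% replicate 3 (0.45). With CSE 5% the rise of 0.87 was 0.58 without control replicate 1 at 5 weeks and kept its call, and with CSE 10% the 0.85 was 0.55 and kept its call.

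CLDN2, the pore-forming claudin, was higher with CSE 5% at 3 and 5 weeks and showed no called change at 1 week. At 1 week its levels lay between 6.66 and 6.85 in control cells and between 6.51 and 7.12 over the 9 exposed arrays. At 3 weeks the control arrays read 7.48, 7.59 and 7.49, those of CSE 1% 7.26, 7.53 and 7.67, those of CSE 5% 7.97, 8.02 and 7.95, and those of CSE 10% 7.79, 7.72 and 7.76. At 5 weeks they read 7.27, 7.46 and 7.50 in control cells, 7.21, 7.31 and 7.03 with CSE 1%, 8.16, 8.19 and 8.12 with CSE 5%, and 7.73, 7.50 and 7.92 with CSE 10%. The arrays of CSE 5% at 5 weeks were thus the highest of the 36 for this gene.

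The log2 difference of CLDN2 with CSE 5% was 0.46 at 3 weeks (1.37-fold, SE 0.11, adjusted p = 0.0034) and 0.75 at 5 weeks (1.68-fold, adjusted p = 3.2e-06). The 6 earlier control arrays put the latter at 1.02 (adjusted p = 2.3e-09), and both calls held in every alternative run. With CSE 10% it was 0.23 at 3 weeks (adjusted p = 0.13) and 0.30 at 5 weeks (adjusted p = 0.021), where the controls of weeks 1 and 3 gave 0.58. The call at 5 weeks was lost without control replicate 1 (0.23) or CSE 10% replicate 1 or 3 (0.30 and 0.20). It was also lost in the fit to the compared arrays alone (adjusted p = 0.092). With CSE 1% the differences were -0.03 at 3 weeks and -0.23 at 5 weeks, neither past the threshold.

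CLDN4, a sealing claudin of the alveolar epithelium, was called higher with CSE 5% at 1 week and lower with CSE 10% at 5 weeks. Control arrays at 1 week read 7.06, 7.01 and 7.11, and those of CSE 5% 7.56, 7.55 and 7.37, all higher, which is a log2 difference of 0.43 (SE 0.11, adjusted p = 0.011). This call was lost without CSE 5% replicate 1 (0.40, adjusted p = 0.060) or replicate 2 (0.40, adjusted p = 0.0503). At 5 weeks the control arrays read 6.95, 7.08 and 6.99 and those of CSE 10% 6.69, 6.57 and 6.76, all lower. The log2 difference was -0.34 (adjusted p = 0.013), and -0.41 against the controls of weeks 1 and 3 (adjusted p = 0.0020). It did not pass with cyclic loess (-0.23, adjusted p = 0.084) or without CSE 10% replicate 2 (-0.28, adjusted p = 0.059). With CSE 1% at 3 weeks the arrays read 7.52, 7.28 and 7.50 against 7.02, 7.03 and 7.25 in control cells, a difference of 0.33 that did not pass (adjusted p = 0.058). That difference passed with housekeeping centring (0.46, adjusted p = 0.0032) and among the 60% brightest clusters (adjusted p = 0.037). It also passed without control replicate 3 (0.40) or CSE 1% replicate 2 (0.41).

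CLDN3 and CLDN7 moved little. CLDN3, the other sealing claudin of alveolar cells, lay between 8.55 and 9.32 on all 36 arrays. With CSE 10% at 5 weeks it read 8.58, 8.74 and 8.60 against 9.32, 8.84 and 8.86 in control cells, a log2 difference of -0.37 (SE 0.14, adjusted p = 0.027). The same concentration gave -0.34 at 1 week (adjusted p = 0.11) and -0.16 at 3 weeks (adjusted p = 0.48). The 5-week call was lost against the controls of weeks 1 and 3 (-0.31, adjusted p = 0.051), and without control replicate 1 (-0.21) or CSE 10% replicate 1 or 3 (-0.34 and -0.34). It was also lost with housekeeping centring (-0.30, adjusted p = 0.067) and in the fit to the compared arrays alone (adjusted p = 0.072).

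CLDN7, which binds the adhesion molecule EPCAM on the lateral membrane, lay outside the 60% brightest clusters and spanned 0.38 log2 units over the 12 groups. Its control arrays at 5 weeks read 6.52, 6.05 and 5.99, with replicate 1 apart from the rest, those of CSE 1% 5.87, 5.91 and 5.66, and those of CSE 5% 5.86, 5.86 and 5.77. The differences were -0.38 with CSE 1% (adjusted p = 0.0063) and -0.35 with CSE 5% (adjusted p = 0.0073), beside a median of -0.23 and -0.25 for the dim clusters as a whole. Without control replicate 1 they were -0.21 and -0.19, and against the controls of weeks 1 and 3 -0.13 and -0.11, none past the threshold. Both calls were also lost with cyclic loess (-0.16 and -0.11) and in the fit to the compared arrays alone (adjusted p = 0.12 and 0.088). At 1 and 3 weeks the differences of CLDN7 lay between -0.06 and 0.20, and none was called.

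**Figure D3:**
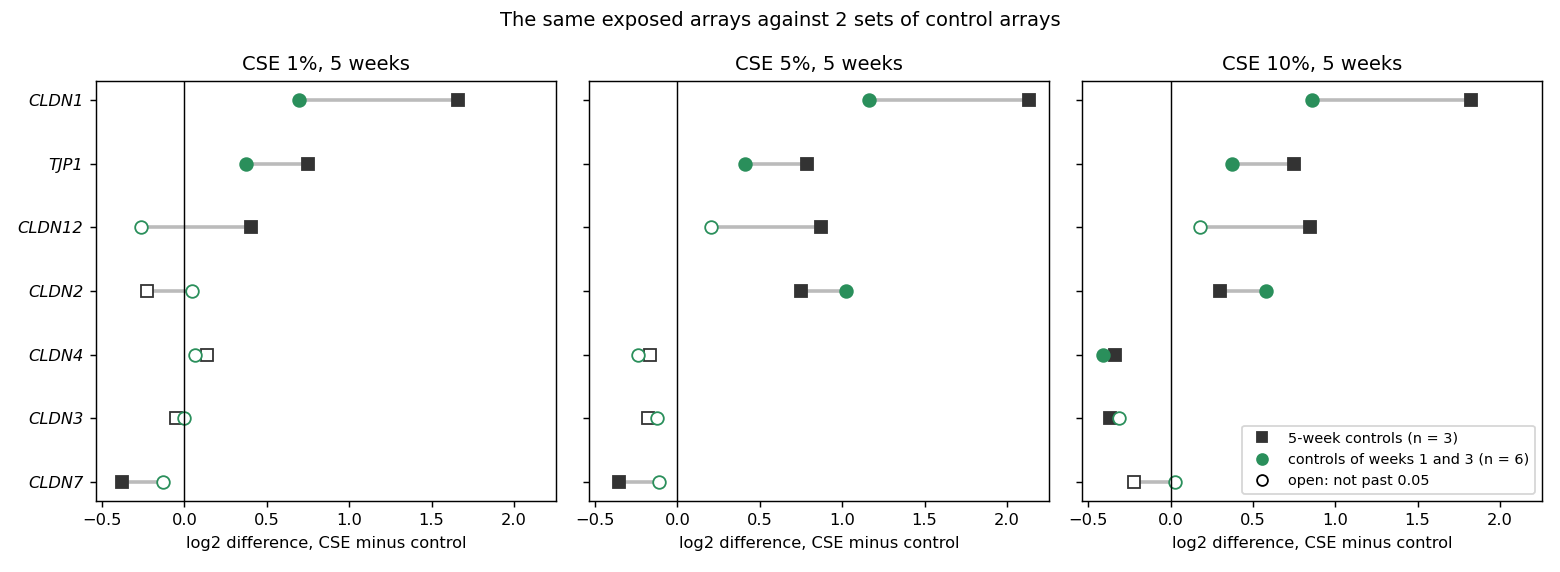
Log2 difference of exposed cells at 5 weeks from the 5-week control arrays (squares, n = 3) and from the control arrays of weeks 1 and 3 (circles, n = 6), for each of the 7 genes and CSE concentrations. Filled symbols passed an adjusted p of 0.05. CLDN1 and TJP1 stay filled and to the right of 0 with both sets, CLDN12 loses its calls with the second set, and CLDN2 with CSE 5% moves from 0.75 to 1.02.

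Concentrations were also compared with each other. The differences use no control array, while their standard errors come from the fit to all 36 arrays, so a fit to the compared arrays alone is given where it ends a call. At 1 week CLDN1 was higher with CSE 5% than with CSE 1% by 0.53 (adjusted p = 0.015) and TJP1 by 0.50 (adjusted p = 0.00040), in a comparison where 2.97% of all clusters were called higher and 3.77% lower. The call for CLDN1 was lost without CSE 1% replicate 2 (0.50) or CSE 5% replicate 1 (0.47). With CSE 10% against CSE 1% at 1 week (4.73% of clusters higher, 7.17% lower), CLDN1 differed by 0.51, TJP1 by 0.43 and CLDN12 by 0.46. CLDN1 lost that call without CSE 1% replicate 2 (0.48) or CSE 10% replicate 2 (0.46), and CLDN12 lost it without any of the 6 arrays. CLDN12 was higher with CSE 10% than with CSE 5% at 1 week by 0.63 (adjusted p = 0.016), where 1.09% of clusters were higher and 2.18% lower. This call was lost without CSE 10% replicate 2 (0.57) or CSE 5% replicate 2 or 3 (0.58 and 0.62).

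CLDN2 and CLDN4 separated the concentrations later, and in opposite directions. At 3 weeks CLDN2 was higher with CSE 5% than with CSE 1% by 0.49 (1.41-fold, adjusted p = 0.0067, and 0.095 in a fit to the compared arrays alone; 2.84% of clusters higher) and at 5 weeks by 0.97 (1.97-fold, adjusted p = 1.2e-06; 2.28% of clusters higher, 1.26% lower). CSE 10% gave less CLDN2 than CSE 5% at 5 weeks, by -0.44 on the log2 scale (adjusted p = 0.028; 0.426% of clusters higher, 1.8% lower), a call lost without CSE 10% replicate 1 (-0.45) or 2 (-0.34) or any array of CSE 5% (-0.46 to -0.43), and in the fit to the compared arrays alone (adjusted p = 0.13). CSE 10% exceeded CSE 1% for CLDN2 at 5 weeks by 0.53 (adjusted p = 0.0018, and 0.083 in the fit to the compared arrays alone; 3.73% of clusters higher). CLDN4 was lower with CSE 5% than with CSE 1% at 3 weeks, at -0.48 (adjusted p = 0.0087; 2.68% of clusters lower), and lost the call without CSE 1% replicate 3 (-0.45) or CSE 5% replicate 1 (-0.43), and in the fit to the compared arrays alone (adjusted p = 0.077). It was lower with CSE 10% than with CSE 1% at 3 weeks, at -0.52 (adjusted p = 0.0025; 6.02% of clusters higher, 6.26% lower). The same comparison at 5 weeks gave -0.47 (adjusted p = 0.0065; 4.95% of clusters lower) and lost its call without CSE 1% replicate 1 (-0.27) and in the fit to the compared arrays alone (adjusted p = 0.22). Between CSE 10% and CSE 5% at 3 weeks no member was called, with 0.21% of all clusters higher and 0.757% lower, and the 95% interval of TJP1 was -0.30 to 0.08. For TJP1 at 5 weeks the intervals were -0.15 to 0.22 for CSE 5% against CSE 1% and -0.19 to 0.19 for CSE 10% against CSE 1%.

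The levels also differed between the weeks of culture. In control cells CLDN2 rose by 0.77 from 1 to 3 weeks (1.70-fold, adjusted p = 1.7e-05; 6.23% of all clusters higher and 5.27% lower), the 1 member called of 7. From 3 to 5 weeks (background 31.7% higher and 21.8% lower) CLDN1 differed by -0.79 (adjusted p = 5.7e-05), TJP1 by -0.50 (adjusted p = 7.5e-05), CLDN12 by -0.49 (adjusted p = 0.0085) and CLDN7 by 0.32 (adjusted p = 0.018). Without control replicate 1 at 5 weeks these were -0.52 for CLDN1 and -0.36 for TJP1, which kept their calls, and -0.20 for CLDN12 and 0.15 for CLDN7, which did not. CLDN7 also lost its call without control replicate 2 at 3 weeks (0.25). The control arrays at 5 weeks are those with the conflicting labels and the narrower spread remarked on before the results. From 3 to 5 weeks in control cells, the median log2 difference was 0.24 among the dim clusters and -0.02 among the brighter ones. The parts of time, labelling and scaling in the differences of control cells at 5 weeks from those at 3 weeks or 1 week were not tested.

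From 1 to 5 weeks control cells differed by -1.15 for CLDN1, -0.85 for CLDN12, -0.25 for TJP1 and 0.66 for CLDN2 (background 28.2% higher and 18.4% lower). For CLDN12 the difference was -0.55 without control replicate 1 at 5 weeks, where it kept its call, and the fit to the compared arrays alone ended the call (adjusted p = 0.059). The call for TJP1 was lost without control replicate 1 at 5 weeks (-0.11) or control replicate 1 or 2 at 1 week (-0.18 and -0.24). Exposed cells took another course for CLDN1. It differed by 0.41 between 1 and 5 weeks in cells given CSE 1% (adjusted p = 0.045), and by 0.35 and 0.07 in those given CSE 5% and CSE 10% (adjusted p = 0.088 and 0.82). The first of these calls was lost in 5 of the 6 fits that left out an array (0.37 to 0.43).

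CLDN2 rose from 1 to 5 weeks by 1.20 in cells given CSE 5% (2.29-fold, adjusted p = 3.4e-09; 9.53% of all clusters higher). In those given CSE 10% it rose by 0.94 (1.91-fold, adjusted p = 3.7e-07; 8.01% higher). CLDN4 was lower at 5 weeks than at 1 week by -0.65 in CSE 5% cells (adjusted p = 0.00012; 7.65% of clusters lower) and by -0.45 in CSE 10% cells (adjusted p = 0.0062; 8.13% lower). CLDN12 was lower by -1.04 with CSE 1% (0.486 of its 1-week level on the linear scale; 7.25% of clusters lower) and by -1.06 with CSE 10%, beside the -0.85 of control cells. With CSE 5% its mean was 10.61 at 1 week and 10.21 at 5 weeks. That smaller change was not called in the main fit and was called in 2 of 6 alternatives. TJP1 was higher at 5 weeks with CSE 1%, by 0.41 (adjusted p = 0.0027, and 0.055 in the fit to the compared arrays alone; 8.05% of clusters higher), and differed by -0.06 and -0.03 with CSE 5% and 10%.

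The difference between the effect at 5 weeks and that at 1 week was tested as an interaction. It passed for CLDN1 and TJP1 with CSE 1% (2 of 7 members higher, 0 lower, against 10.8% and 10.2% of all clusters). With CSE 5% it passed for CLDN1 and CLDN2 upward and CLDN4 downward (2 and 1 of 7, against 15.1% and 15.7%), and with CSE 10% for CLDN1 (1 and 0 of 7, against 13.6% and 16%). With the controls of weeks 1 and 3 in place of the 5-week controls, the members called were CLDN1 upward and CLDN12 downward for CSE 1%, where 4.19% of clusters were higher and 4.26% lower. They were CLDN1 and CLDN2 upward and CLDN4 downward for CSE 5% (5.96% and 5%), and CLDN2 upward and CLDN4 and CLDN12 downward for CSE 10% (4.99% and 5.73%). This second test takes the change of exposed cells from 1 to 5 weeks, less only a part of the change of control cells from 1 to 3 weeks. Time in culture and exposure therefore stay together in it, and its calls are not by themselves changes in the effect of exposure. Both tests share their control arrays with the comparisons above.

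Placed in order of their 12 group means, the levels formed few clear steps. For CLDN1 the means ran from 9.81 ± 0.46 (SD, n = 3) in 5-week controls to 11.94 ± 0.16 with CSE 5% at 5 weeks, and the arrays of neighbouring groups overlapped in 8 of 11 pairs. The 3 control groups were the lowest 3. For TJP1 the order ran from 10.86 ± 0.24 in 5-week controls to 11.85 ± 0.11 with CSE 5% at 3 weeks, with 9 of 11 neighbouring pairs overlapping. The clear step in the middle, of 0.25, lay above the 3 control groups and CSE 1% at 1 week. CLDN12 ran from 9.33 ± 0.51 in 5-week controls to 11.24 ± 0.099 with CSE 10% at 1 week, and its 3 highest groups were the exposed groups of 1 week. CLDN2 ran from 6.75 ± 0.097 in 1-week controls to 8.16 ± 0.034 with CSE 5% at 5 weeks, with the 4 groups of 1 week lowest. For CLDN4 the means lay between 6.67 ± 0.096 and 7.49 ± 0.11, and 10 of 11 neighbouring pairs overlapped. CLDN3 and CLDN7 had overlap in 11 of 11 pairs.

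For the 3 members whose group means spanned over 1 log2 unit, the genes with the closest course were sought by the root mean square (RMS) of the difference between centred group means, over the 12 groups. KAT2B, an acetyltransferase, was closest to CLDN1, at an RMS of 0.11 log2 units, followed by VEZT, which encodes vezatin of the adherens junction (0.16), and TNFAIP8 (0.16), where the median over all genes was 0.62. For CLDN12 they were HBP1, CLK1 and PRNP (0.16, 0.16 and 0.17, with a median of 0.52 over all genes). For CLDN2 they were DPY19L2P1, LPCAT3 and EFR3B (0.18, 0.20 and 0.21, with a median of 0.49).

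Of 17 other claudins, 16 could be read and 2 calls were made over the 6 comparisons of 1 and 3 weeks. In these comparisons 3.41% to 14% of all clusters were called higher and 1.9% to 12.5% lower. CLDN10, a claudin of ion-selective pores, was lower with CSE 10% at 1 week (-0.48, adjusted p = 0.034), and CLDN16, known from magnesium transport in the kidney, was higher with CSE 10% at 3 weeks (0.38, adjusted p = 0.014). At 5 weeks 7, 7 and 8 of the 16 were lower with CSE 1%, 5% and 10% and none higher, which is 43.8%, 43.8% and 50% beside 33.5%, 40.3% and 39.6% of all clusters. With CSE 5% the smallest p belonged to CLDN11 (-0.50), CLDN8 (-0.58) and CLDN19 (-0.47), which were -0.07, 0.08 and -0.10 against the controls of weeks 1 and 3, none past the threshold. With those controls, 0, 0 and 2 of the 16 were lower, beside 7.43%, 13% and 16% of all clusters. CLDN18, the third alveolar claudin, was at -0.31 with CSE 5% at 5 weeks and at -0.11 with those controls, where it was not called.

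Of 11 other membrane proteins of the tight junction, 1 was higher and 2 lower with CSE 10% at 3 weeks (9.09% and 18.2%, beside 14% and 12.5% of all clusters). The 2 that fell were MARVELD3 (-0.59, adjusted p = 1.5e-05), a relative of occludin, and LSR (-0.58, adjusted p = 0.00064), the angulin of contacts between 3 cells, and TMEM47 was higher (0.81, adjusted p = 0.0032). With CSE 5% at 5 weeks 3 of the 11 were higher and 5 lower (27.3% and 45.5%, beside 23% and 40.3% of all clusters), and 0 and 4 with the controls of weeks 1 and 3 (0% and 36.4%, beside 13.1% and 13%). MARVELD3 (-0.67, and -0.80 with those controls) and LSR (-0.80, and -0.47) were lower with both sets. MARVELD2, the tricellulin gene, changed direction between the sets, from 0.37 to -0.39, with a call in each, and CXADR (0.71), TMEM47 (1.58) and ILDR2 (-0.65) were called with the 5-week controls alone.

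Scaffold and polarity proteins on the inner face of the junction had more members higher than lower at 3 weeks. Of 26 read, 7 were higher and 2 lower with CSE 5% at 3 weeks (26.9% and 7.69%, against 9.7% and 9.93% of all clusters), with a median log2 difference of 0.11 against -0.04 for all clusters. With CSE 10% at 3 weeks it was 8 and 2 (30.8% and 7.69%, against 14% and 12.5%). With CSE 5% at 5 weeks it was 12 and 8 (46.2% and 30.8%, against 23% and 40.3%), or 6 and 7 with the controls of weeks 1 and 3 (23.1% and 26.9%, against 13.1% and 13%). MPDZ, a scaffold with many PDZ domains that binds claudins, was higher by 1.53 with CSE 10% at 3 weeks (adjusted p = 1.7e-10) and by 2.41 with CSE 5% at 5 weeks, or 1.74 with those controls. PARD3, the polarity scaffold, was higher by 0.57 and 1.11 in these comparisons, or 0.64 with those controls, and PARD6B, its partner, by 0.74 in the first. PATJ, a relative of MPDZ, was higher by 1.09 with CSE 5% at 5 weeks and by 0.24 with those controls, where it was not called. CRB3, the apical polarity protein, was lower by -0.42 and -0.76, or -0.57 with those controls. TJP3 (-0.52, and -0.56), a paralogue of TJP1, and LLGL2 (-0.47, and -0.45), a basolateral polarity protein, were lower with both sets. YBX3, a transcription factor that binds TJP1, was lower with CSE 10% at 3 weeks (-0.46).

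**Figure D4:**
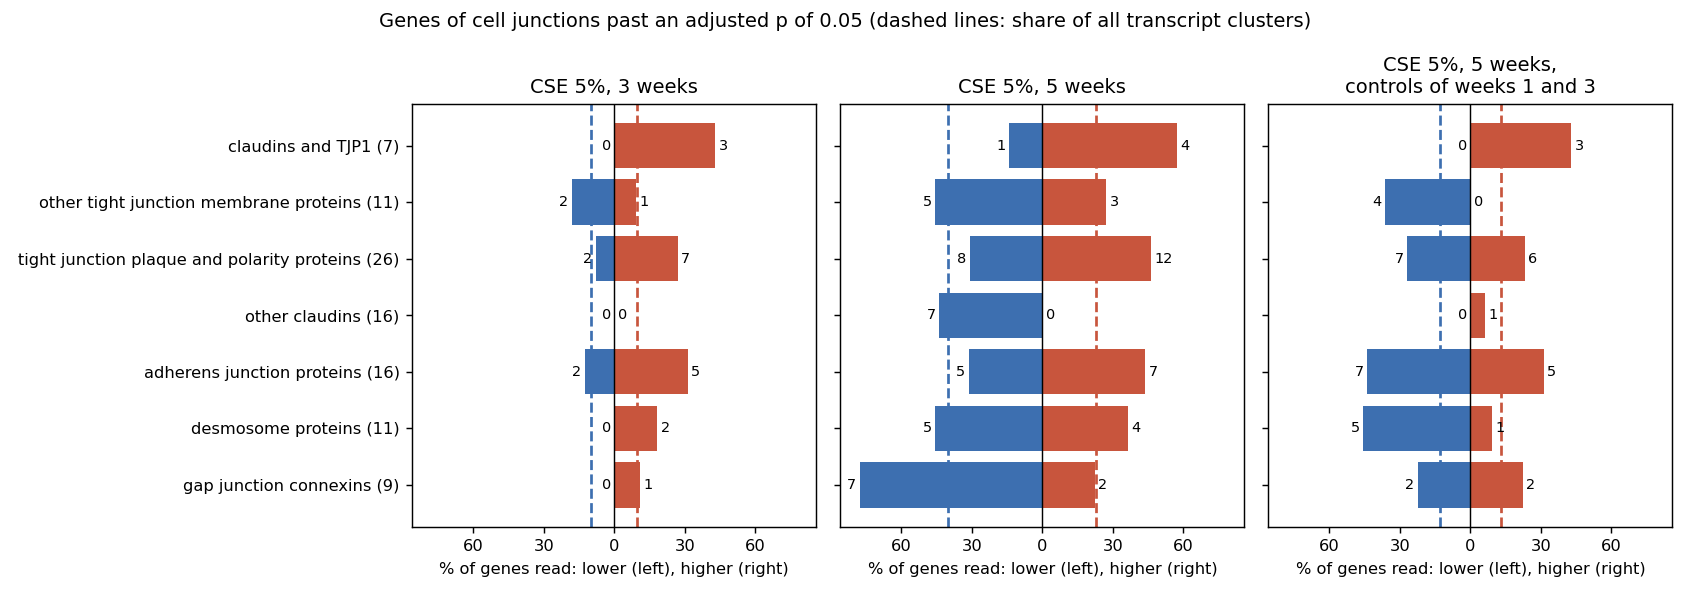
Percent of the genes read in each list of junction genes that passed an adjusted p of 0.05, lower to the left and higher to the right, for CSE 5% at 3 weeks, at 5 weeks and at 5 weeks with the controls of weeks 1 and 3. The number read stands beside each name, counts stand at the bars, and dashed lines mark the share of all transcript clusters. The 26 scaffold and polarity genes have 7, 12 and 6 higher, and the 16 other claudins 7 lower in the middle panel and 0 in the last.

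Of 16 genes of the neighbouring adherens junction, 5 were higher and 3 lower with CSE 10% at 3 weeks (31.2% and 18.8%, beside 14% and 12.5% of all clusters). The counts with CSE 5% at 5 weeks were 7 and 5 (43.8% and 31.2%, beside 23% and 40.3%), and with the controls of weeks 1 and 3 it was 5 and 7 (31.2% and 43.8%, beside 13.1% and 13%). AFDN (0.74), NECTIN3 (0.96) and CDH2 (0.60), which encode afadin, nectin-3 and N-cadherin, were higher in the former, and CTNNA1 (-0.33), JUP (-0.47) and ACTN4 (-0.23) lower. In the latter, NECTIN3 (1.76), CDH2 (1.73) and CTNNB1 (0.57), the gene of beta-catenin, were higher and JUP (-0.73), the gene of plakoglobin, and PLEKHA7 (-0.34) lower. These 5 genes kept direction and call with the controls of weeks 1 and 3 (1.24, 1.63, 0.22, -0.78 and -0.48), and CDH3 (-0.36) did not keep its call. Of 11 desmosome genes, 2 were higher and 3 lower with CSE 10% at 3 weeks (18.2% and 27.3%, beside 14% and 12.5%). DSC3 (0.76) and DSC2 (0.44) rose, and DSP (-0.50), PKP3 (-0.46) and PKP2 (-0.29) fell. With CSE 5% at 5 weeks it was 4 and 5 (36.4% and 45.5%, beside 23% and 40.3%) or, with the controls of weeks 1 and 3, 1 and 5 (9.09% and 45.5%, beside 13.1% and 13%), among them DSC3 at 1.20 (0.98 with the controls of weeks 1 and 3) and PKP3 at -0.87 (-0.66). DSC2 (0.89), PKP4 (0.49) and DSG3 (-0.43) were not called with those controls, and PKP1 (-0.39) was, at -0.30.

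Of 9 connexin genes of the gap junction, GJB2 (-0.43) and GJB1 (-0.39) were lower with CSE 10% at 3 weeks (22.2%, beside 12.5% of all clusters) and none was higher. At 5 weeks with CSE 5%, 2 were higher and 7 lower (22.2% and 77.8%, beside 23% and 40.3%), and with the controls of weeks 1 and 3 it was 2 and 2 (22.2% and 22.2%, beside 13.1% and 13%). GJA1, the gene of connexin 43, was higher by 1.65 and GJC1 by 0.86, and with the controls of weeks 1 and 3 they were higher by 1.09 and 1.01. GJB1 (-0.52, and -0.41 with those controls) and GJB2 (-0.52, and -0.25) were lower with both sets, and GJB6 (-0.53) with the 5-week controls alone.

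Among 18 transcription factors and splicing regulators that act on junction genes, 4 were higher and 4 lower with CSE 10% at 3 weeks (22.2% each, beside 14% and 12.5% of all clusters). With CSE 5% at 5 weeks it was 5 and 9 (27.8% and 50%, beside 23% and 40.3%), and 3 and 5 with the controls of weeks 1 and 3 (16.7% and 27.8%, beside 13.1% and 13%). ZEB1, a repressor of epithelial genes, was higher by 1.02 (adjusted p = 0.00014) and 1.67 (adjusted p = 4.3e-08), or 1.49 with the controls of weeks 1 and 3. SNAI1, another such repressor, was lower by -0.50 and -0.64, or -0.70 with those controls. KLF4, a factor of epithelial differentiation, was lower by -1.88 (adjusted p = 1.5e-15) and -1.21, or -1.67 with those controls. FOXA1 was higher by 0.61 and 0.68, ELF3 was higher by 0.39 and FOXA2 lower by -0.47 in the first comparison, and TFAP2A was higher by 0.40 and GRHL1 lower by -0.59 in the second. GRHL1 was at -0.12 with those controls and was not called.

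The label of the cells was set against marker genes. The 6 markers of simple epithelium were among the 60% brightest clusters. Over the 36 arrays KRT8 lay between 12.99 and 13.62, KRT18 between 12.97 and 13.54 and CDH1 between 10.53 and 11.40. The ranges were wider for KRT7 (10.96 to 12.34), KRT19 (8.30 to 9.91) and EPCAM (8.27 to 10.98). The surfactant genes SFTPC (5.84 to 6.70) and SFTPB (5.98 to 6.79) and the lineage factor NKX2-1 (5.29 to 6.02) of alveolar type II cells lay in the dim part, while 4 of the 9 type II markers (ABCA3, ETV5, SFTPD and NAPSA) were among the 60% brightest clusters. Of the fibroblast markers 4 of 9 were among these (COL1A1, COL1A2, COL3A1 and PDGFRB), and DCN (3.62 to 4.57) and LUM (3.46 to 4.18) were dim. Of the endothelial markers it was 1 of 6 (CLDN5), with CDH5 (5.60 to 6.19) and VWF (5.45 to 6.02) dim, and of the leukocyte markers 2 of 4 (CD14 and CD68), with PTPRC (3.63 to 4.64) dim. With CSE 10% at 3 weeks, 4 of 6 simple epithelial markers were lower (66.7%, beside 12.5% of all clusters), among them KRT7 (-0.84), KRT8 (-0.30) and KRT18 (-0.29), and 0 of 9 fibroblast and 0 of 6 endothelial markers changed. In the same comparison, the only type II marker called was NAPSA, which was higher (0.31, beside 14% of all clusters). The only leukocyte marker called was CD68, which was lower (-0.55). With CSE 5% at 5 weeks, 6 of 9 fibroblast, 5 of 6 endothelial and 4 of 4 leukocyte markers were lower, beside 40.3% of all clusters, and 1, 0 and 2 with the controls of weeks 1 and 3, beside 13%. CD68, which is not restricted to leukocytes, was lower with both sets of controls (-0.87 and -0.95). CDH1 was at 0.25 with the 5-week controls and at -0.30 with those of weeks 1 and 3, called in each. KRT7 (-1.07 and -0.90), KRT19 (-1.09 and -0.54) and KRT8 (-0.38 and -0.25) were called lower with both sets. Among the type II markers, ETV5 (0.41) was the only one higher with the 5-week controls, beside 23% of all clusters. Of those lower, beside 40.3% of all clusters, NKX2-1 (-0.37), SFTPD (-0.40) and SFTPB (-0.31) had the smallest p. None of these genes was called with the controls of weeks 1 and 3. The part of these epithelial genes in the results above was not tested.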

How the data were processed

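RNA of A549 cells was hybridised to 36 arrays of the type Affymetrix Human Gene 1.0 ST, with 12 groups of 3. Per the study's methods, the authors background corrected, normalised and summarised the probes with RMA and deposited log2 values per transcript cluster. The processing notes name R 2.11.0. The annotation gave 1 symbol to 19460 of 33297 clusters, several to 1754 and none to 12083; no source used here names its genome build. Groups were taken from the sample titles. A group-means model was fitted to all arrays with limma 3.58.1 in R 4.3.3, with moderated variances and Benjamini-Hochberg adjustment over all clusters. The fit was tested on simulated data. Members and gene lists were chosen with earlier results of these data known. In the lists, up to 3 genes called in each direction with the smallest p are named for CSE 10% at 3 weeks and CSE 5% at 5 weeks, and CLDN10 and CLDN18 were named after their values were seen. Alternatives were other scalings, filters, variance models, controls, a replicate block, a fit to the arrays of each comparison alone, and leaving out each array. Arrays give no read depth, so their number limits the precision. No 2 arrays were copies (highest correlation 0.996). The result of 1 further gene list is not reported here.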

Additional observations from a re-analysis of the deposited data

Results flagged for a closer look

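The effect of exposure differed between 5 weeks and 1 week, by the limma interaction test, in 6 results on 4 genes. Values given below with the controls of weeks 1 and 3 keep time in culture together with exposure. They are not a second estimate of the same interaction. For CLDN1 the effect at 5 weeks exceeded that at 1 week by 1.56, 1.499 and 1.21 with CSE 1%, 5% and 10% (adjusted p = 4.1e-06, 5.9e-06 and 6.0e-05). With each array left out in turn these ran from 1.30 to 1.70, 1.24 to 1.64 and 0.95 to 1.35, and with the controls of weeks 1 and 3 they were 0.59, 0.53 and 0.25, the last not past the threshold (adjusted p = 0.38). The control level of CLDN1 moved by -1.15 between these weeks, beside 0.41, 0.35 and 0.07 in exposed cells, and the part of the 5-week control arrays was not tested beyond these values.

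For TJP1 the difference was 0.66 with CSE 1% (adjusted p = 0.00086), and 0.28 with the controls of weeks 1 and 3 (adjusted p = 0.090). For CLDN2 it was 0.54 with CSE 5% (adjusted p = 0.012), and 0.81 with those controls (adjusted p = 4.5e-05). CLDN2 also rose in control cells from 1 to 5 weeks, a change that the value of 0.81 removes only in part. For CLDN4 it was -0.60 with CSE 5% (adjusted p = 0.0070), and -0.67 with those controls (adjusted p = 0.00063).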

How the results depend on the processing

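Over 189 member results, 2409 alternative values were computed: 2255 had the direction and call of the main value, 85 lost a call, 68 gained one and 1 reversed. The reversal was CLDN12 with CSE 1% at 5 weeks, at -0.27 with the controls of weeks 1 and 3. A separate fit to the arrays of each comparison changed the number of members called from 1 to 0 (CSE 1%, 1 week), from 4 to 2 (CSE 1%, 5 weeks), from 4 to 2 in control cells (5 weeks against 3 weeks and against 1 week), from 2 to 1 (CSE 1%, 5 weeks minus 1 week), from 1 to 2 (CSE 10%, 5 weeks minus 1 week), from 2 to 1 (CSE 5% against CSE 1%, 3 weeks), from 1 to 0 (CSE 10% against CSE 5%, 5 weeks), from 2 to 0 (CSE 10% against CSE 1%, 5 weeks) and from 3 to 1 (CSE 1% cells, 5 weeks against 1 week). Centring on housekeeping genes gave 4 in place of 2 (CSE 1%, 3 weeks), 5 in place of 3 (CSE 10%, 3 weeks) and 3 in place of 1 (control cells, 3 weeks against 1 week), and 2 in place of 1 for CSE 10% against CSE 5% (1 week), CSE 10% against CSE 1% (3 weeks) and CSE 5% against CSE 1% (5 weeks). In this order, the calls over all 33297 clusters, higher and lower, moved as well. They went from 1887 and 1936 to 3970 and 966, from 4665 and 4161 to 10542 and 2252, and from 2073 and 1756 to 1361 and 3468. Then they went from 363 and 726 to 338 and 776, from 2005 and 2084 to 2767 and 1583, and from 758 and 420 to 696 and 427. Cyclic loess gave 2 in place of 4 (CSE 1%, 5 weeks) and 2 in place of 1 (CSE 5% against CSE 1%, 5 weeks). Over all clusters it moved the higher and lower calls from 6744 and 11139 to 7205 and 7144, and from 758 and 420 to 818 and 480. The controls of weeks 1 and 3 gave 2 in place of 4 (CSE 1%, 5 weeks), 3 in place of 5 (CSE 5%, 5 weeks) and 3 in place of 1 (CSE 10%, 5 weeks minus 1 week). The shares of all clusters higher and lower went from 20.3% and 33.5% to 7.86% and 7.43% in the first. They went from 23% and 40.3% to 13.1% and 13% in the second, and from 13.6% and 16% to 4.99% and 5.73% in the last. The calls over all clusters are not given for the separate fits, nor for the fits below that leave out an array. Those counts of members therefore stand without a background. The causes were not tested.

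With each array left out in turn, counts ran from 0 to 1 for CSE 1% at 1 week (0 without control replicate 3 or CSE 1% replicate 1 or 3), from 2 to 4 for CSE 1% at 5 weeks, from 1 to 3 for control cells at 3 weeks against 1 week (3 without control replicate 3 and 2 without replicate 1, both of week 1), from 2 to 4 for control cells at 5 weeks against 3 weeks, and, for 5 weeks minus 1 week, from 2 to 4 for CSE 1% and from 1 to 2 for CSE 10%. For CSE 1% against control at 5 weeks and for control cells at 5 weeks against 3 weeks, the lowest count was the one without 5-week control replicate 1. Counts for CSE 10% against control at 5 weeks ran from 4 to 7, with 7 without control replicate 2 or 3. Those for CSE 5% against CSE 1% at 5 weeks, which uses no control array, ran from 1 to 4, with 4 without CSE 1% replicate 3.

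Replicate numbers were shared by the groups, but 6 of 27 same-numbered pairs had deviations correlated above 0.1 (range -0.208 to 0.504), so they were not taken as pairs. In 1 of 9 comparisons, CSE 1% at 5 weeks, 3 of 3 pairs did, and the replicate block changed no member call there. The replicate block ended 2 calls, CLDN12 for CSE 10% against CSE 1% at 1 week (adjusted p = 0.058) and CLDN1 in CSE 1% cells from 1 to 5 weeks (adjusted p = 0.055). Of 1248 list counts under alternatives, 211 moved by over 1.5 times. The mean of a gene's clusters was not run, since each member has 1, nor the 60% brightest clusters for counts, since CLDN7 lies outside them.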
